A study of Mus musculus with 56 samples.

Results

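Respiratory complex I was followed through its messenger RNAs in mouse tibialis anterior, the muscle along the shin. Members were the genes whose symbol begins with Ndufa, Ndufb, Ndufc, Ndufs or Ndufv and a digit, or with mt-Nd; symbols ending in -ps and the assembly factors beginning with Ndufaf were left out. The rule found 45 members among the 14871 genes of the table, 38 encoded in the nucleus and 7 on the mitochondrial chromosome. All 45 were among the 13017 genes that passed the filter on low values and were tested. By this rule the set also holds Ndufa4, a subunit since assigned to complex IV, its low-expressed paralogue Ndufa4l2, and Ndufb4c, which the annotation lists as a processed pseudogene and whose reads can be confused with those of Ndufb4.

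Total RNA from whole muscle was sequenced in 56 samples. The mice were wild-type, or homozygous or heterozygous for the titin mechanical knock-out (mKO), an allele in which titin, a giant elastic protein of the sarcomere, carries a site for the tobacco etch virus (TEV) protease. Muscles had received saline or adeno-associated virus (AAV) encoding TEV protease fused to green fluorescent protein, and were taken 3, 7 or 21 days post injection (dpi). The study thereby compared muscle in which titin can be cut with muscle that carries the virus and no such site.

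Wild-type muscle was given saline in 3, 3 and 4 samples and AAV in 5, 4 and 4 samples at 3, 7 and 21 dpi. Homozygous muscle was given saline in 4, 4 and 4 samples and AAV in 4, 5 and 4 samples at the same days. Heterozygous muscle was sampled at 7 dpi only, with 4 saline and 4 AAV samples. Separate animals are not named in the labels. The p-values therefore measure only the spread between these samples, which may be technical in part. The labels used here name no promoter for the viral construct, no age and no sex. Saline muscle is the control within each genotype and day. The labels do not say whether saline and AAV muscles came from the same mice.

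Complex I, the NADH:ubiquinone oxidoreductase of the inner mitochondrial membrane, takes electrons from NADH, passes them to ubiquinone and pumps protons. Its peripheral arm holds the N module, where NADH is oxidised, and the Q module, where ubiquinone is reduced, and its membrane arm holds the proton pumps. The mt-Nd proteins form the core of the membrane arm and are made inside the mitochondrion, whereas every other subunit is made from nuclear messenger RNA and imported. Skeletal muscle fibres are rich in the complex, and its supply depends on both genomes. The regulators PGC-1alpha, the estrogen-related receptors, NRF1 and GABP act on nuclear genes of the respiratory chain, and TFAM and POLRMT serve transcription of the mitochondrial chromosome.

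The 7 mitochondrial members lie between chrM:2751 and chrM:14070 (GRCm38), without introns. Pairs of them share bases, which matters for how their reads are counted. The ends below are printed 5′ to 3′ in the sense of each gene, with the shared bases in capitals. The genes mt-Nd4l (chrM:10144-10173, + strand, last bases) and mt-Nd4 (chrM:10167-10196, + strand, first bases) share 7 bases of the same strand. The last bases of mt-Nd5 (chrM:13536-13565, + strand) and of mt-Nd6 (chrM:13552-13581, - strand) share 14 bases on opposite strands.
mt-Nd4l: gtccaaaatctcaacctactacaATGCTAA
mt-Nd4: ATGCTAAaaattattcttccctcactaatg
mt-Nd5: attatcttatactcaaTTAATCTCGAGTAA
mt-Nd6: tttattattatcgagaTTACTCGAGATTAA
The library kit keeps the strand of the RNA, but whether the counting used it is not stated in what was read here, so mt-Nd6, the only member on its strand, is given apart from the others where values are named.

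Nuclear members are spread over many chromosomes, and 32 of 38 had a promoter window in the RefSeq table (GRCm38.p6; 250 bases before to 50 bases after the start). Letters of 4 motifs of known regulators were searched on both strands. The letters of the NRF1 consensus stood in 7 of 32 windows (21.9%), against 5.19% of all 27025 gene windows. The letters of the extended YY1 consensus stood in 4 windows (12.5%, against 0.755% of all), the ETS/GABP letters CCGGAAG in 4 (12.5%, against 9.93%) and the estrogen-related receptor letters TNAAGGTCA in 1 (3.13%, against 1.43%). At least 1 of them stood in 14 of 32 windows (43.8%), against 15.8% of all windows. The last bases of the ETS letters and the first of the YY1 letters are the same, so these matches can overlap. A match is a description of letters and not a bound site.

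The windows of 3 members are shown with their matches in capitals: Ndufb4 (chr16:37654319-37654618, - strand) has 3 NRF1 matches and the only estrogen-related receptor match, Ndufs8 (chr19:3912725-3913024, - strand) is a core subunit whose messenger RNA fell in all 5 comparisons with calls, and Ndufb7 (chr8:83566508-83566807, + strand) was called in none of them. The capitals in Ndufs8 and Ndufb7 are ETS/GABP matches.
Ndufb4: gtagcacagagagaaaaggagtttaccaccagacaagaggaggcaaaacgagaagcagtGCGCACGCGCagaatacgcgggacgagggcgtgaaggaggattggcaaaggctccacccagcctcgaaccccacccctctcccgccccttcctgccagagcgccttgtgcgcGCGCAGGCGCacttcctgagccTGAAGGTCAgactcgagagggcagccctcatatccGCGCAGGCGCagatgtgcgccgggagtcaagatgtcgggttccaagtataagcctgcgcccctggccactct
Ndufs8: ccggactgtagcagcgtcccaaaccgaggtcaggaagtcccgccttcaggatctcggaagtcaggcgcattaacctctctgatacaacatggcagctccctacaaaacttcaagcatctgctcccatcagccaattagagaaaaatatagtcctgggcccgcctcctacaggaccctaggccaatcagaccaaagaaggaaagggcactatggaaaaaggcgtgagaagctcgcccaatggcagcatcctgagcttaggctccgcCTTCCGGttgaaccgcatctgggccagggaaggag
Ndufb7: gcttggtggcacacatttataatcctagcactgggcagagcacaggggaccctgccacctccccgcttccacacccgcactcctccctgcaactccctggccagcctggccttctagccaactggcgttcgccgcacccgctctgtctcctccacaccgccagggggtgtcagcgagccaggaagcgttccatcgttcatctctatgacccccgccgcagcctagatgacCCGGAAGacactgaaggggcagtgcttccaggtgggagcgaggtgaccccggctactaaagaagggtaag
The same motif letters thus stand in a member that fell and in one that was not called.

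Depth and sample identity were checked before the members were compared. Recovered reads ranged from 6.9 M to 27.18 M per library, and genes of the mitochondrial chromosome took 9.96% to 25.68% of them. The library with 6.9 M was homozygous AAV replicate 2 at 7 dpi, and the next lowest held 14.98 M. The transgene had at most 6 reads in any saline library and 56 to 34407 reads in the AAV libraries. Markers of fast muscle fibres were abundant in every saline group: their summed value averaged 143633 to 176408 in the saline groups. In the 5 comparisons described below in which members were called, 14 of 15 macrophage markers rose each time. Of all genes tested 17.4% to 29.7% were called higher there. A difference in whole muscle can come from fewer fibres or from less RNA per fibre, which cannot be told apart here.

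In saline muscle the level per kilobase of exon was far higher for the mitochondrial than for the nuclear members. Over the 26 saline libraries it ran from 5627 (mt-Nd3) to 20425 (mt-Nd1) normalised reads per kilobase for the mitochondrial members. The nuclear members ran from 6.55 (Ndufa4l2) to 302 (Ndufb9), so every mitochondrial member lay above every nuclear one. Values below are normalised read counts per gene unless stated, and sums over members are read counts that are not corrected for length.

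In wild-type muscle the virus was followed by no called member at 3 and 7 dpi. At 3 dpi the nuclear sum was 6046, 6513 and 6347 in the saline libraries and 5851 to 6881 (median 6230.2) in the AAV libraries, and at 7 dpi it was 6874 to 6976 against 6439 to 7161. The mt-Nd sum was 81986, 107161 and 82805 against 70464 to 85343 at 3 dpi, and 84194, 99198 and 77276 against 87041 to 94228 at 7 dpi. The groups overlapped in all of these. With limma, 0 of 38 nuclear and 0 of 7 mitochondrial members were called, where 0% of all genes tested were called lower and 0% higher on either day. At an unadjusted p under 0.05 the counts of lower members were also 0 and 0 on both days, and edgeR and DESeq2 called 0 lower members.

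By 21 dpi wild-type muscle with the virus had lower complex I messenger RNA, most of all the mitochondrial part. The nuclear sum was 6549, 6689.6, 6255 and 6047 in saline and 5549.9, 5976, 5079 and 4981 in AAV libraries, a change of -15.5% in the means with no overlap. The mt-Nd sum was 94450.0, 85252, 99039 and 86205 against 70718, 83641, 44370.2 and 36256, a change of -35.6%, also with no overlap. As shares of all reads the mt-Nd members took 8.30%, 7.62%, 8.69% and 7.73% in saline and 7.84%, 8.42%, 5.29% and 4.21% in AAV libraries. On that scale AAV replicates 1 and 2 lay within the saline range. For the mt-Nd members AAV replicates 3 and 4 were well below replicates 1 and 2 on both scales. These same libraries held the higher macrophage sums, 1181 and 1062 against 585 and 372 in replicates 1 and 2, while their fibre marker sums, 119295 and 141320.0, were above the 90622 and 112648 of replicates 1 and 2. Their part in the result was not tested.

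All 7 mitochondrial and 16 of 38 nuclear members were lower at 21 dpi in wild-type muscle, where 21.3% of all genes tested were called lower. No member was called higher, where 19.7% of all genes were. The median log2 change was -0.78 for the mitochondrial members (range -0.88 to -0.60) and -0.19 for the nuclear ones (range -0.48 to 0.15), against -0.01 over all genes. The nuclear count rested on single libraries: it was 9 without AAV replicate 3 and 8 without AAV replicate 4. It was also 0 on a scale of reads per-million and 11 nuclear members were then higher, so the nuclear direction in this comparison depends on the scale.

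In homozygous muscle, where both titin copies carry the TEV site, members were called from the earliest day. At 3 dpi the nuclear sum was 5751, 5902, 5749.5 and 5918 in saline and 4865, 3874, 3729 and 4791 in AAV libraries (-26.0%). The mt-Nd sum was 70624, 75060.1, 74974 and 73323 against 48325, 50618, 44241 and 58936 (-31.2%). Neither sum overlapped between groups.

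All 7 mitochondrial and 31 of 38 nuclear members were lower in homozygous muscle at 3 dpi, where 17.2% of all genes tested were called lower, and 0 were higher, where 17.4% of all genes were. The median log2 change was -0.40 for nuclear members (range -0.66 to -0.19) and -0.55 for mitochondrial ones (range -0.89 to -0.45). Without AAV replicate 3 the mitochondrial count was 4. On the scale of reads per-million 12 nuclear members and 1 mitochondrial member were called lower, and all 38 nuclear members lay under the median of all genes.

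In homozygous muscle at 7 dpi the mitochondrial sum stood further below its saline level than the nuclear sum did. The nuclear sum was 6194, 5691, 5699 and 5721.5 in saline and 4034, 4595, 4527, 4014 and 4738 in AAV libraries (-24.8%). The mt-Nd sum was 72954, 77898, 67968 and 68742 against 36225, 38112, 45445, 31753 and 35282 (-48.0%). The groups did not overlap in either sum.

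Of the members, 27 of 38 nuclear and 7 of 7 mitochondrial were lower in homozygous muscle at 7 dpi, where 22.5% of all genes tested were called lower, and 0 were higher, where 20.6% of all genes were. The medians were -0.33 (range -0.79 to 0.17) and -0.96 (range -1.07 to -0.77) on the log2 scale. On the scale of reads per-million 6 nuclear members were lower and 8 higher, while the 7 mitochondrial members were lower on both scales.

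The largest changes in the series were those of homozygous muscle at 21 dpi. The nuclear sum was 5770.0, 5731, 5938.5 and 5858 in saline and 2655, 3049, 2934 and 4296 in AAV libraries (-44.5%). The mt-Nd sum was 82786, 74620.0, 73521 and 89542 against 23147, 24678, 24905 and 40531 (-64.7%). No AAV library reached the saline range. AAV replicate 4 was the highest of its group in both sums, with the lowest macrophage marker sum (338, against 835 to 3068) and the highest fibre marker sum (133367, against 64834 to 94552), whose part in the result was not tested.

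There 36 of 38 nuclear and 7 of 7 mitochondrial members were lower, where 29.6% of all genes tested were called lower in homozygous muscle at 21 dpi. None was higher, where 29.7% of all genes were. The medians were -0.83 (range -1.26 to -0.19) and -1.53 (range -1.92 to -1.36) on the log2 scale. Only Ndufb7 and Ndufa4l2 were not called. With reads per-million 24 nuclear members were lower and 2 higher.

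Heterozygous muscle, which has a wild-type copy of titin beside the mKO copy, had lower values of both classes at 7 dpi. Its nuclear sum was 6129, 6999, 6390.3 and 6539 in saline and 5074, 4476, 5302 and 4375 in AAV libraries (-26.2%). The mt-Nd sum was 90624, 92907, 88154 and 99006 against 62053, 50356, 50757 and 42889 (-44.4%). Neither overlapped. Of the members, 29 of 38 nuclear and 7 of 7 mitochondrial were lower, where 20.8% of all genes tested were called lower and 19.6% higher, with medians of -0.41 (range -0.83 to 0.06) and -0.83 (range -0.94 to -0.61). With reads per-million 12 nuclear members were lower and 4 higher.

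**Figure D1:**
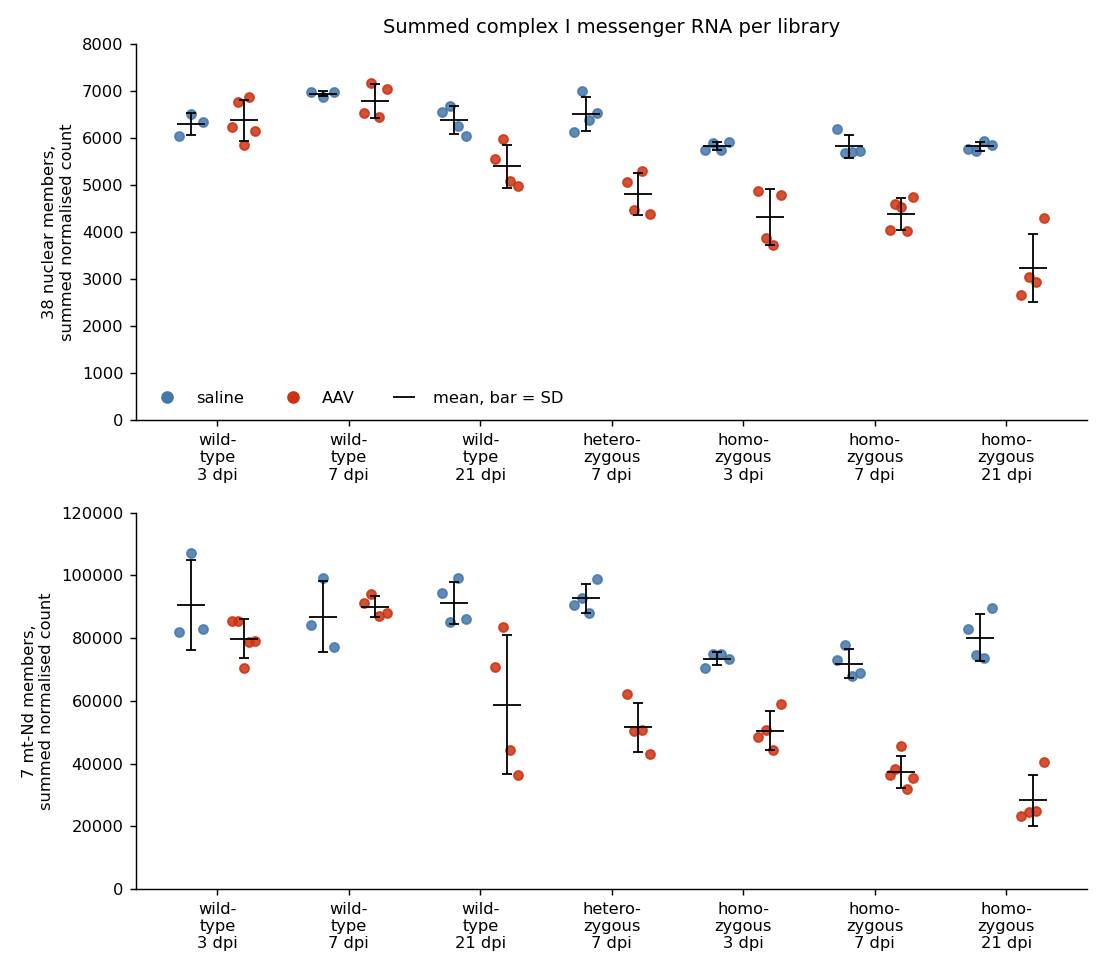
Summed normalised read count of the 38 nuclear members (upper panel) and the 7 mt-Nd members (lower panel) in every library, by group, with saline in blue and AAV in red; points are libraries and bars mean ± SD. In wild-type muscle the AAV and saline libraries overlap at 3 and 7 dpi and part at 21 dpi, and in homozygous and heterozygous muscle they do not overlap in either panel.

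Both genomes were compared within each library by the log2 ratio of the mt-Nd sum to the nuclear sum, which any scaling of a whole library leaves as it is. It is a ratio of summed read counts, not per length, and is given as a description with no test. In homozygous muscle at 21 dpi the ratio was 3.84, 3.70, 3.63 and 3.93 in saline and 3.12, 3.02, 3.09 and 3.24 in AAV libraries, a difference of -0.66. At 7 dpi it was 3.56, 3.77, 3.58 and 3.59 against 3.17, 3.05, 3.33, 2.98 and 2.90, a difference of -0.54. Both pairs of groups were apart: the mitochondrial share of complex I reads was lower in every AAV library.

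At 3 dpi the homozygous ratio was 3.62, 3.67, 3.70 and 3.63 in saline and 3.31, 3.71, 3.57 and 3.62 in AAV libraries, a difference of -0.10 with overlap. Thus both genomes' messenger RNAs were lower by similar amounts at 3 dpi, and the gap between them was larger at 7 and 21 dpi. Heterozygous muscle at 7 dpi had 3.89, 3.73, 3.79 and 3.92 against 3.61, 3.49, 3.26 and 3.29, a difference of -0.42 with no overlap. In wild-type muscle the difference was -0.19 at 3 dpi and 0.09 at 7 dpi, with overlap.

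Wild-type muscle at 21 dpi was divided. Its saline ratios were 3.85, 3.67, 3.98 and 3.83, AAV replicates 1 and 2 had 3.67 and 3.81, and AAV replicates 3 and 4 had 3.13 and 2.86. The difference of -0.47 therefore rested on those 2 libraries. Transgene reads were 31472 and 22654 in replicates 1 and 2 and 2565 and 18299 in replicates 3 and 4, and the part of the transgene in the ratios was not tested.

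**Figure D2:**
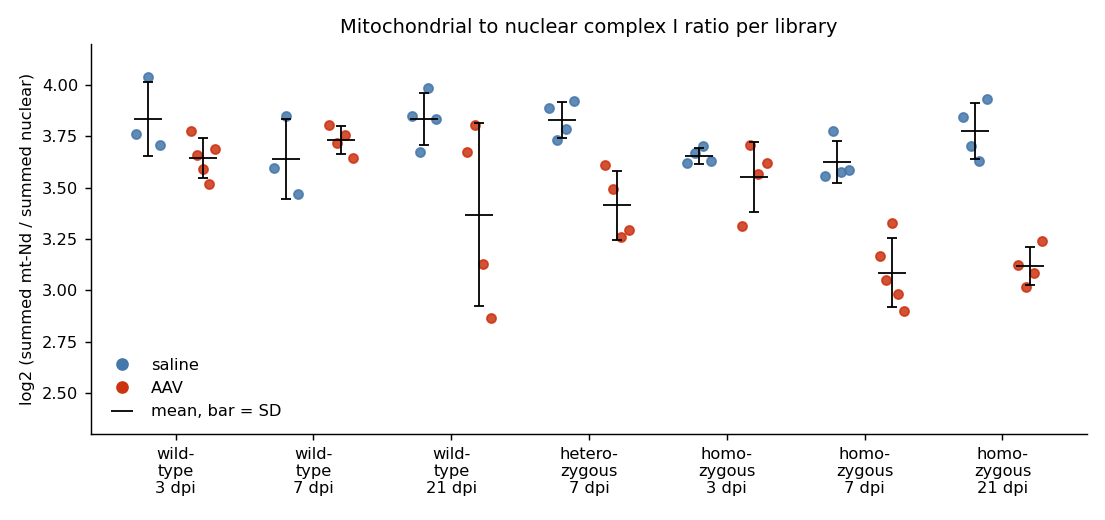
Log2 ratio of the summed mt-Nd to the summed nuclear normalised read counts in every library, by group, saline in blue and AAV in red, with mean ± SD. Homozygous muscle at 7 and 21 dpi and heterozygous muscle at 7 dpi show AAV libraries below every saline library, and the wild-type AAV libraries at 21 dpi split into 2 high and 2 low.

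Other mitochondrially encoded messenger RNAs moved with the mt-Nd genes. All 6 of them, for subunits of complexes III, IV and V, were lower in each of the 5 comparisons, with median log2 changes of -0.61 (wild-type 21 dpi), -0.51, -0.86 and -1.47 (homozygous 3, 7 and 21 dpi) and -0.78 (heterozygous). For mt-Co1, a catalytic subunit of complex IV, the log2 change was -1.06 in homozygous muscle at 7 dpi and -1.47 at 21 dpi. The log2 ratio of mt-Nd to these other messenger RNAs differed between AAV and saline by -0.11 to 0.02 over the 7 comparisons, with overlap in every one. At 21 dpi the overlap rested on wild-type AAV replicate 2 (-0.922) and homozygous AAV replicate 4 (-0.819). Wild-type AAV replicates 1, 3 and 4, at -1.008, -1.012 and -0.996, lay below every saline library of that group (-0.931 to -0.837). Homozygous AAV replicates 1, 2 and 3, at -1.015, -0.961 and -0.940, also lay below their saline libraries (-0.920 to -0.772). Whether the proportion between the 2 sets of mitochondrial messenger RNAs changed was not tested.

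How much of the fall is seen depends on what the libraries are scaled to. On the deposited scale the median log2 change of all genes was between -0.01 and 0.00. As plain reads per-million, which was chosen after seeing the data, it was 0.28 in wild-type muscle at 21 dpi, 0.24, 0.33 and 0.51 in homozygous muscle at 3, 7 and 21 dpi and 0.24 in heterozygous muscle. The nuclear medians were then 0.13, -0.11, 0.05, -0.27 and -0.13, so they were above 0 in wild-type muscle at 21 dpi and homozygous muscle at 7 dpi. Relative to all genes they were -0.15, -0.36, -0.28, -0.78 and -0.37, close to the -0.18, -0.39, -0.32, -0.83 and -0.40 of the deposited scale.

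The mitochondrial medians stayed below 0 under all 6 scalings tried in these 5 comparisons. They were -0.45, -0.25, -0.58, -0.97 and -0.55 as reads per-million. Scaled to the muscle fibre markers they were -0.43, -0.11, -0.57, -0.83 and -0.62, against nuclear medians of 0.15, 0.03, 0.07, -0.13 and -0.20. Under that scaling 0 nuclear and 0 mitochondrial members were lower in homozygous muscle at 3 dpi, while 14 and 7 were lower at 21 dpi. With quantile normalization the order at 3 dpi turned, to -0.31 for nuclear and -0.06 for mitochondrial members.

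**Figure D3:**
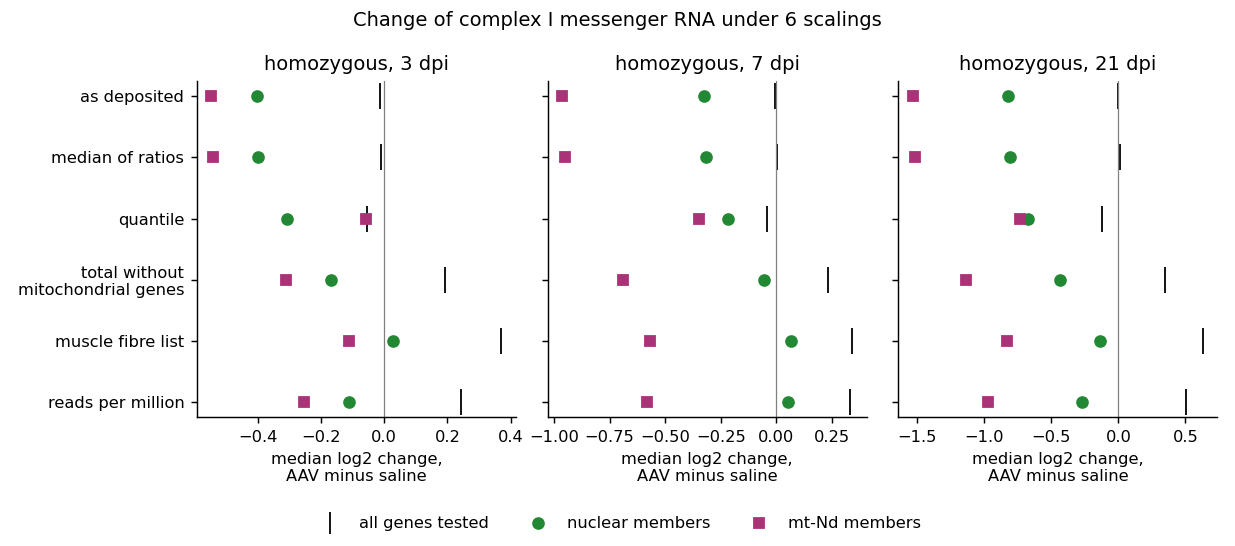
Median log2 change, AAV against saline, of all genes tested (bar), the nuclear members (circle) and the mt-Nd members (square) under 6 scalings in homozygous muscle at 3, 7 and 21 dpi. The mt-Nd median lies lowest under every scaling at 7 and 21 dpi, while the nuclear median crosses 0 at 7 dpi under some scalings.

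As shares of all reads, without any scaling, the nuclear members took 0.536% in saline and 0.526% in AAV homozygous muscle at 7 dpi, with overlap. At 21 dpi they took 0.519% and 0.420%, with no overlap. The mt-Nd members took 6.62% and 4.48% at 7 dpi and 7.14% and 3.66% at 21 dpi, with no overlap on either day. At 3 dpi homozygous mt-Nd shares were 6.63% to 7.16% in saline and 5.43% to 6.23% in AAV libraries, with no overlap. Nuclear shares were then 0.537% to 0.567% and 0.457% to 0.571%, with overlap. Heterozygous nuclear shares were 0.543% to 0.601% in saline and 0.485% to 0.534% in AAV libraries, with no overlap. Within the sequenced RNA the homozygous mitochondrial members thus lost share on each day. The nuclear shares were apart at 21 dpi in homozygous and at 7 dpi in heterozygous muscle.

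Among the nuclear members 6 core subunits, Ndufs1, Ndufs3, Ndufs7, Ndufs8, Ndufv1 and Ndufv2, which carry the flavin and iron-sulphur centres or, for Ndufs3, belong to the core of the Q module, were lower in 6 of 6 cases in each of the 5 comparisons. Their median log2 changes were -0.33 in wild-type muscle at 21 dpi, -0.52, -0.61 and -1.05 in homozygous muscle at 3, 7 and 21 dpi, and -0.57 in heterozygous muscle. The 28 accessory subunits had 6, 23, 18, 27 and 20 members lower, with medians of -0.17, -0.40, -0.29, -0.77 and -0.36. Of all genes tested 21.3%, 17.2%, 22.5%, 29.6% and 20.8% were called lower, so the 6 of 28 (21.4%) in wild-type muscle were at the background. The difference between core and accessory members was not tested. Directions under each scaling were followed only for the named members, here Ndufs1, Ndufs8, Ndufv1 and Ndufv2, and not for Ndufs3 and Ndufs7. In wild-type muscle at 21 dpi the direction of 3 of those named turned with the scale. Ndufv1 and Ndufv2 were at 0.02 and 0.06 with reads per-million, and Ndufs8 was at 0.0021 with the fibre marker scaling.

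Ndufs1 (chr1:63143596-63176833, - strand), the largest subunit, carries iron-sulphur clusters of the N module. In homozygous muscle at 21 dpi it was at 451.5, 455.4, 486.0 and 500.0 in saline and 178.6, 178.7, 167.3 and 283.9 in AAV libraries. The log2 change was -1.26 ± 0.10 (SE; limma adjusted p = 1.28e-13), with no overlap between groups.
At 3 dpi Ndufs1 was at 452.9, 437.6, 458.0 and 454.0 in saline and 250.5, 276.1, 260.4 and 363.6 in AAV homozygous libraries (log2 change -0.66 ± 0.10; adjusted p = 3.67e-06). Its 7 dpi values were 494.2, 449.2, 470.4 and 473.9 against 280.5, 279.9, 283.0, 231.7 and 291.5 (-0.79 ± 0.10; adjusted p = 2.63e-08). The saline and AAV groups were apart on both days, and Ndufs1 had the largest nuclear fall on each of the 3 days.
In heterozygous muscle Ndufs1 was at 546.4, 549.6, 529.7 and 574.5 in saline and 366.8, 293.9, 302.2 and 279.0 in AAV libraries (-0.83 ± 0.10; adjusted p = 1.86e-08). Wild-type muscle at 21 dpi had 581.6, 571.8, 544.0 and 528.2 against 400.4, 467.1, 406.9 and 342.5 (-0.47 ± 0.10; adjusted p = 0.000329). These groups did not overlap, whereas at 3 and 7 dpi the wild-type groups did.

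Ndufv1 (chr19:4007384-4012806, - strand), which binds the flavin and NADH, followed the same course. At 21 dpi homozygous muscle had 303.0, 298.8, 299.4 and 304.9 in saline and 121.7, 127.8, 121.3 and 211.6 in AAV libraries (log2 change -1.09 ± 0.11; limma adjusted p = 1.54e-11). At the earlier 7 dpi it had 329.6, 308.8, 290.3 and 288.4 against 192.7, 189.4, 199.3, 163.7 and 183.0 (-0.71 ± 0.10; adjusted p = 4.62e-07). Neither day had overlap, and replicate 4 of the AAV libraries was the highest at 21 dpi. In wild-type muscle at 21 dpi the change was -0.31 ± 0.11 (adjusted p = 0.0203) with overlapping groups, and on the scale of reads per-million it was 0.02.

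Ndufv2, the partner of Ndufv1 in the flavin unit, was at 323.1, 303.7, 309.1 and 324.8 in saline and 142.3, 135.5, 138.8 and 188.5 in AAV homozygous libraries at 21 dpi. The log2 change was -1.07 ± 0.09 (limma adjusted p = 1.82e-13), with no overlap. It was -0.50, -0.52 and -0.54 in homozygous muscle at 3 and 7 dpi and heterozygous muscle at 7 dpi. All 3 were called.

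In the Q module, which passes electrons to ubiquinone, 5, 4, 5 and 4 of 5 members described were lower in homozygous muscle at 3, 7 and 21 dpi and heterozygous muscle, where 17.2%, 22.5%, 29.6% and 20.8% of all genes tested were. Ndufs8, an iron-sulphur subunit, was at 105.2, 103.5, 93.48 and 98.25 in saline and 63.11, 62.08, 62.81, 57.31 and 67.42 in AAV homozygous libraries at 7 dpi (log2 change -0.67 ± 0.10; limma adjusted p = 1.41e-06). Its 21 dpi values were 83.38, 93.03, 96.19 and 100.5 against 44.34, 38.89, 37.42 and 62.22 (-1.04 ± 0.11; adjusted p = 5.21e-11). The groups were apart on both days. Ndufa9, an accessory subunit of the same module, changed by -0.70 ± 0.09 at 7 dpi (adjusted p = 3.49e-08), from 240.3, 222.6, 216.5 and 213.0 to between 121.9 and 151.9.

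The N module had 8, 7 and 10 of 10 members lower in homozygous muscle at 3, 7 and 21 dpi, with medians of -0.37, -0.28 and -0.76, and 7 of 10 in heterozygous muscle. In the proximal membrane arm, which includes 5 mt-Nd subunits, 12, 11 and 14 of 14 members were lower at these days and 13 in heterozygous muscle. The distal membrane arm, with mt-Nd4 and mt-Nd5, had 11, 9 and 11 of 12 lower and 9 in heterozygous muscle. In these comparisons 17.2%, 22.5%, 29.6% and 20.8% of all genes tested were called lower. Ndufa8, an accessory subunit of the membrane arm, had one of the 3 largest nuclear falls at 3 dpi: it was at 122.8, 142.1, 126.5 and 138.8 in saline and 112.6, 77.73, 71.38 and 96.18 in AAV homozygous libraries (-0.58 ± 0.11; limma adjusted p = 8.39e-05).

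Ndufb8, an accessory subunit often used to probe assembled complex I, was at 220.0, 220.2, 235.5 and 229.0 in saline and 103.0, 117.0, 119.5 and 174.0 in AAV homozygous libraries at 21 dpi (log2 change -0.84 ± 0.10; limma adjusted p = 7.75e-10). The 7 dpi change was -0.48 ± 0.09 (adjusted p = 4.68e-05), from 226.1 to 247.7 in saline to 147.5 to 186.0 in AAV libraries. Neither day had overlap. Ndufb4, a membrane arm accessory subunit, was at 52.23, 66.01, 57.61 and 54.62 in saline and 41.16, 33.70, 35.22 and 34.13 in AAV heterozygous libraries (-0.66 ± 0.10; adjusted p = 5.25e-07). In wild-type muscle at 21 dpi Ndufb2, another accessory subunit of that arm, had the largest nuclear fall, from 81.21 to 89.65 in saline to 56.05 to 64.77 in AAV libraries (-0.48 ± 0.13; adjusted p = 0.00342).

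Ndufb7 (chr8:83566671-83571626, + strand), an accessory subunit on the intermembrane side, was called in no comparison. In homozygous muscle at 21 dpi it was at 78.00, 74.50, 82.03 and 75.22 in saline and 53.18, 72.33, 63.73 and 86.82 in AAV libraries, which overlap. The log2 change was -0.19 ± 0.11 (limma adjusted p = 0.142). In homozygous muscle at 7 dpi the change was 0.02 and in heterozygous muscle 0.01. At 3 dpi it was -0.27 ± 0.11 (adjusted p = 0.0504), just outside the threshold.

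Ndufb3, a small membrane arm subunit, was lower at 3 and 21 dpi and not at 7 dpi in homozygous muscle. It was at 83.86, 91.81, 90.35 and 91.90 in saline and 73.01, 59.50, 58.27 and 66.11 in AAV libraries at 3 dpi (log2 change -0.48 ± 0.10; limma adjusted p = 0.000173). At 7 dpi it was at 92.59, 74.46, 80.07 and 83.97 against 69.89, 93.70, 86.93, 80.83 and 89.60, overlapping groups with a change of 0.02 ± 0.09 (adjusted p = 0.872).
At 21 dpi it was at 99.15, 84.51, 81.33 and 76.96 against 45.75, 60.25, 48.31 and 66.46, with no overlap (-0.63 ± 0.10; adjusted p = 3.63e-07), although the change was 0.06 with the fibre marker scaling. The difference between the responses was itself called, at 0.50 ± 0.13 for 7 against 3 dpi (adjusted p = 0.0177) and -0.65 ± 0.13 for 21 against 7 dpi (adjusted p = 0.000767). Ndufb3 was the only member called of 45 between 3 and 7 dpi. That count is near the background, as 2.8% of all genes tested were called higher.

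Ndufa4 and Ndufa4l2 differed in level and in how clearly they changed. Ndufa4 was at 341.6, 310.6, 320.9 and 310.5 in saline and 132.4, 157.1, 155.9 and 220.0 in AAV homozygous libraries at 21 dpi (log2 change -0.97 ± 0.10; limma adjusted p = 2.83e-11). Its paralogue Ndufa4l2, a gene known for induction under low oxygen, stayed between 2.84 and 9.45 in all libraries. It was at 4.50, 4.76, 6.20 and 5.69 in saline and 3.06, 4.68, 2.84 and 5.64 in AAV homozygous libraries at 21 dpi, which overlap (-0.34 ± 0.16; adjusted p = 0.0634).
Ndufa4l2 was called lower in wild-type muscle at 21 dpi (-0.47 ± 0.16; adjusted p = 0.0168) and in homozygous muscle at 7 dpi (-0.44 ± 0.15; adjusted p = 0.0192). The homozygous groups at 7 dpi overlapped, with 4.75 to 8.67 in saline and 3.68 to 6.20 in AAV libraries. The wild-type groups at 21 dpi did not overlap. A log2 change on the scale of value + 1 understates changes at such low levels.

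**Figure D4:**
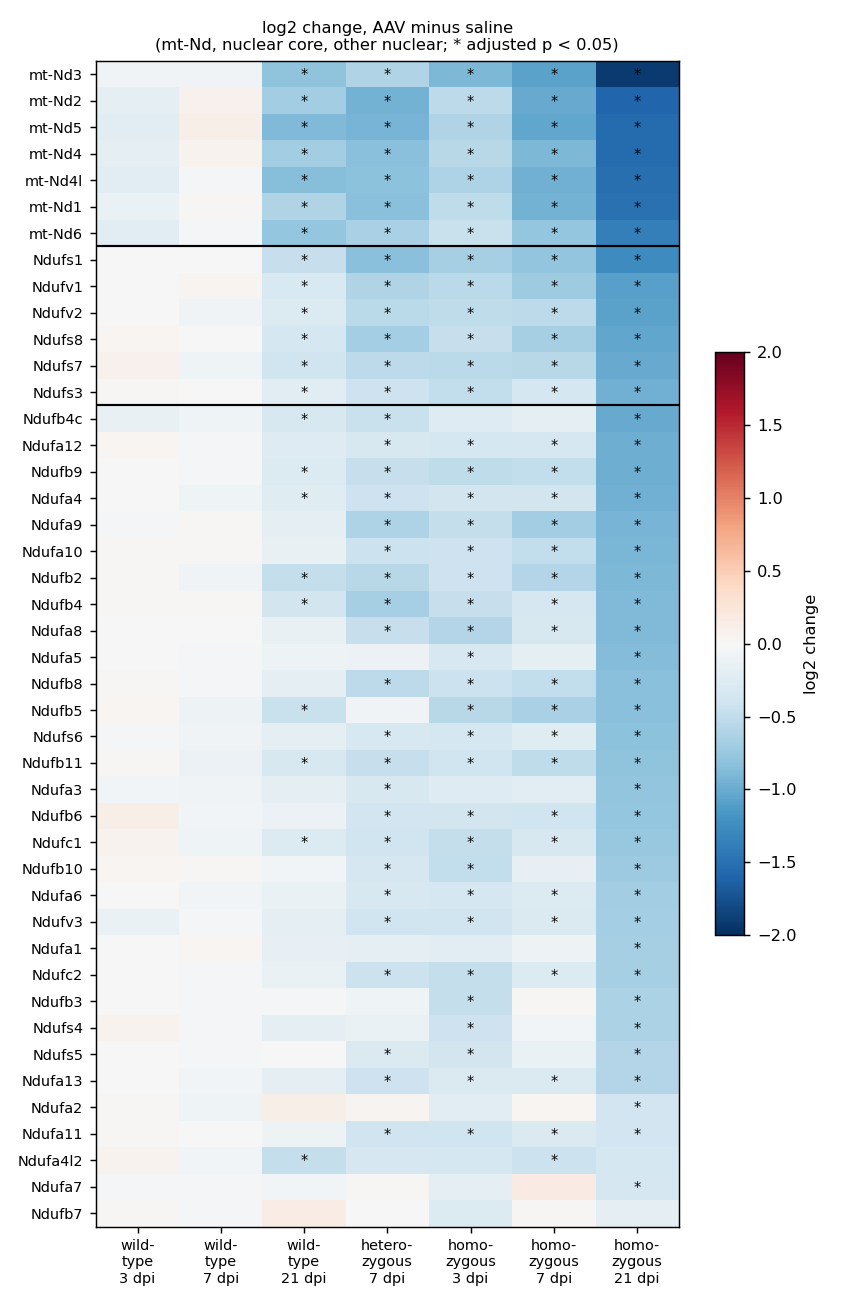
Log2 change, AAV against saline, of 44 members in the 7 comparisons, in blocks of mt-Nd, nuclear core and other nuclear members; blue is lower, red higher, and an asterisk marks a limma adjusted p under 0.05. The mt-Nd block is marked throughout in the 5 comparisons other than wild-type at 3 and 7 dpi, and the deepest blue stands in homozygous muscle at 21 dpi.

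On the deposited scale the 7 mitochondrial members were all called lower by limma in each of the 5 comparisons. The count in wild-type muscle at 21 dpi was 3 with quantile normalization, with the fibre marker scaling and when only the groups compared were fitted. For homozygous muscle at 3 dpi those settings called 1, 0 and 4, the total without mitochondrial genes 2 and reads per-million 1. At 21 dpi in homozygous muscle the smallest change was that of mt-Nd6, the only one on its strand, at -1.36 ± 0.14 (limma adjusted p = 6.06e-11), and the largest that of mt-Nd3. The others, mt-Nd1, mt-Nd2, mt-Nd4, mt-Nd4l and mt-Nd5, changed by -1.49, -1.59, -1.53, -1.50 and -1.54, with SE of 0.17 or 0.18. Those 5 lay within 1 SE of each other.

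The mt-Nd3 gene (chrM:9459-9806, + strand) encodes a small membrane subunit near the ubiquinone channel. At 21 dpi it was at 1801, 2068, 1814 and 2209 in saline and 370.3, 636.4, 570.9 and 540.8 in AAV homozygous libraries (log2 change -1.92 ± 0.21; limma adjusted p = 2.22e-10). Its 7 dpi values were 1855, 1999, 1927 and 1705 against 886.5, 887.8, 1095, 728.2 and 883.8 (-1.07 ± 0.20; adjusted p = 3.66e-05). At 3 dpi it was at 1714, 1337, 2174 and 1502 against 575.4, 1021, 863.7 and 1241 (-0.89 ± 0.21; adjusted p = 0.00106).
No homozygous group overlapped with its control, and AAV replicate 1 was lowest at both 3 and 21 dpi. In wild-type muscle at 21 dpi mt-Nd3 was at 2115, 1936, 2027 and 1968 against 1604, 1942, 852.8 and 664.2, so that AAV replicate 2 lay within the saline range (-0.80 ± 0.21; adjusted p = 0.00232). Heterozygous muscle had 1683, 2208, 1783 and 1875 against 1508, 1475, 921.7 and 1126 (-0.61 ± 0.21; adjusted p = 0.0204), with no overlap.

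The mt-Nd5 gene encodes the pump at the tip of the membrane arm. At 7 dpi it was at 12445, 13531, 11613 and 11984 in saline and 6704, 6057, 7182, 5123 and 5349.8 in AAV homozygous libraries (log2 change -1.04 ± 0.17; limma adjusted p = 2.71e-06), and at 21 dpi at 15004, 12349, 12978 and 14831 against 4169.8, 3949, 4142 and 7270 (-1.54 ± 0.17; adjusted p = 3.64e-10). In wild-type muscle at 21 dpi it was at 16825, 14667, 18130.2 and 15417 against 10879.8, 13023, 7578 and 5602 (-0.88 ± 0.17; adjusted p = 8.24e-05). None of these groups overlapped, and the wild-type AAV libraries again had replicates 3 and 4 lowest.

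The mt-Nd6 gene (chrM:13552-14070, - strand), which encodes a proximal membrane subunit, was at 3497, 2889, 2675 and 3346 in saline and 1023, 1150.4, 1076 and 1642 in AAV homozygous libraries at 21 dpi. Its 7 dpi values were 2899, 2870.3, 2706 and 2753 against 1632, 1682, 1869, 1397 and 1654 (log2 change -0.77 ± 0.14; limma adjusted p = 1.21e-05). The groups were apart on both days. The mt-Nd1 gene, for the subunit that joins the membrane arm to the Q module, was at 19545, 17225, 17024 and 21137 in saline and 5855, 6066, 5988 and 9156 in AAV homozygous libraries at 21 dpi (-1.49 ± 0.17; adjusted p = 1.97e-10).

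**Figure D5:**
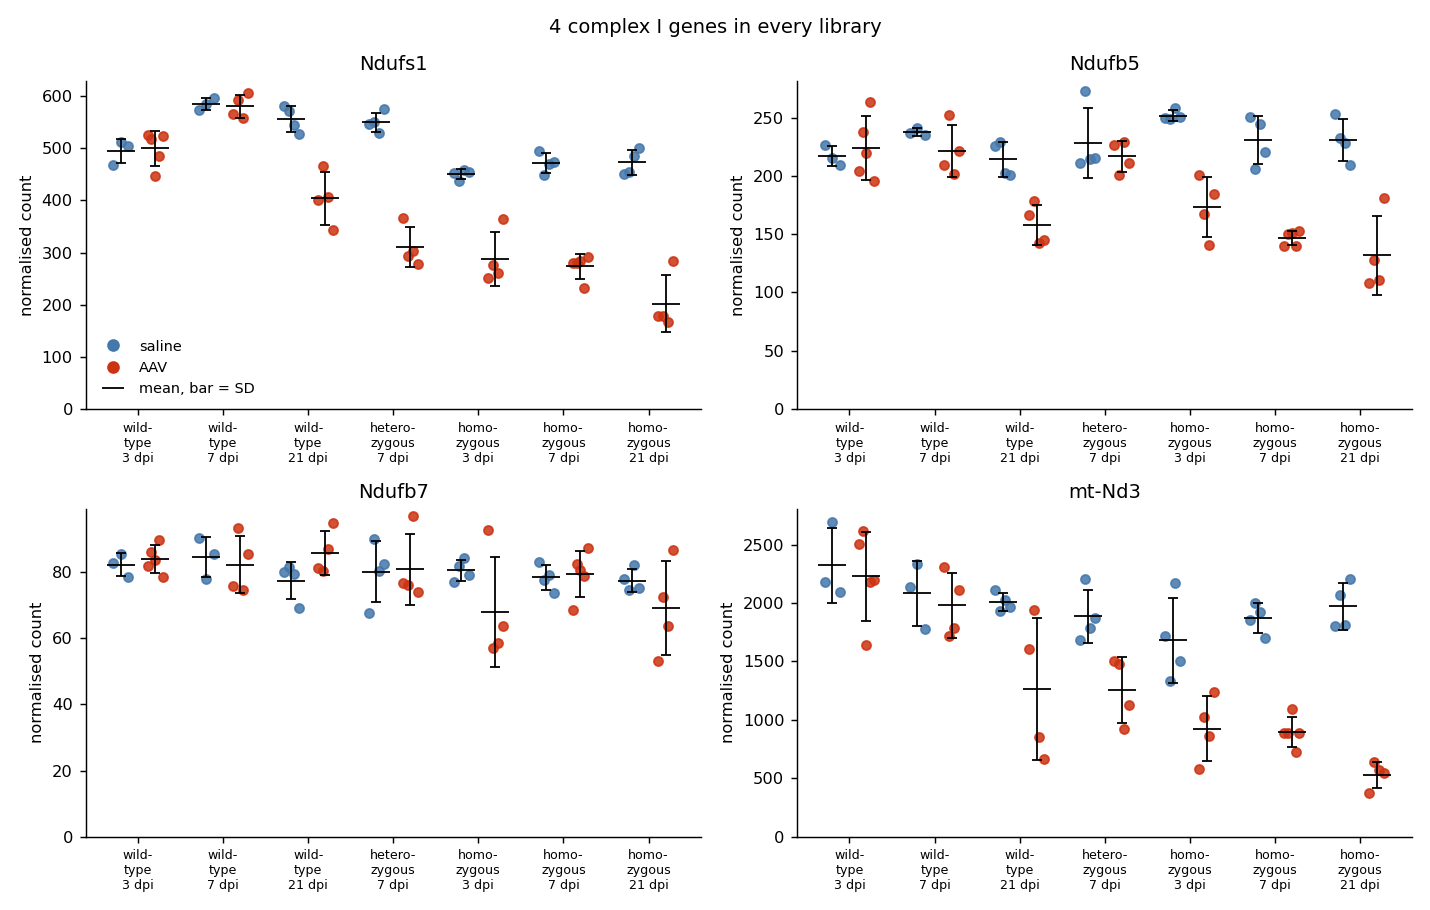
Normalised read counts of Ndufs1, Ndufb5, Ndufb7 and mt-Nd3 in every library, by group, saline in blue and AAV in red. Ndufs1 and mt-Nd3 are lower in AAV libraries in homozygous and heterozygous muscle, Ndufb5 is lower in homozygous and not in heterozygous muscle at 7 dpi, and Ndufb7 overlaps in homozygous muscle at 21 dpi.

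Whether the responses differed between genotypes was tested directly, as the AAV minus saline change of one genotype less that of another. At 3 dpi, homozygous less wild-type, 20 of 38 nuclear and 0 of 7 mitochondrial members were lower, where 4.36% of all genes tested were called lower. For the mitochondrial members limma's unadjusted p was under 0.05 for 1, and edgeR and DESeq2 called 0. The nuclear count was 12 without wild-type saline replicate 1, 13 without homozygous AAV replicate 2 and 9 without homozygous AAV replicate 3. The mitochondrial count was 1 without wild-type AAV replicate 3 or homozygous AAV replicate 4. With reads per-million 8 nuclear members were lower, and with the fibre marker scaling 0.

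At 7 dpi, 13 nuclear and 7 mitochondrial members fell more in homozygous than in wild-type muscle, where 10.9% of all genes tested were called lower. The nuclear count was 3 with reads per-million. The counts were 6 and 2 with quantile normalization and 3 and 3 with the fibre marker scaling, nuclear and mitochondrial in turn. In heterozygous against wild-type muscle 13 nuclear and 6 mitochondrial members fell more, where 9.88% of all genes tested were called lower, and the mitochondrial count was 4 to 6 over the fits that left out a library and 2 with quantile normalization. The nuclear count was 5 with reads per-million, 6 with the fibre marker scaling and 21 when only the groups compared were fitted. Ndufs1 differed by -0.78 ± 0.15 (limma adjusted p = 0.000326) and -0.82 ± 0.15 (adjusted p = 0.000143), and mt-Nd5 by -1.15 ± 0.25 (adjusted p = 0.0012) and -1.05 ± 0.26 (adjusted p = 0.00287), homozygous and heterozygous in turn. These comparisons share the wild-type samples. Transgene reads at 7 dpi were 3201 to 5557 in wild-type, 238 to 683 in homozygous and 1711 to 2739 in heterozygous AAV libraries, with no overlap. These reads are not corrected for depth, and the 238 belong to the library with 6.9 M reads. The genotypes compared at 7 dpi thus differed in transgene level, and its part in the response differences was not tested. At 3 and 21 dpi the wild-type and homozygous transgene reads overlapped.

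At 21 dpi 29 nuclear and 4 mitochondrial members fell more in homozygous than in wild-type muscle, where 3.79% of all genes tested were called lower. Ndufv2 differed by -0.80 ± 0.13 (limma adjusted p = 7.46e-05) and mt-Nd3 by -1.12 ± 0.30 (adjusted p = 0.0189). The mitochondrial count rested on single libraries: it was 0 without wild-type AAV replicate 1 or 2, 1 or 2 without homozygous AAV replicate 1, 2 or 3, and 7 without wild-type or homozygous AAV replicate 4. When only the groups compared were fitted, 7 nuclear and 0 mitochondrial members were called, and with the fibre marker scaling 2 and 0.

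Between homozygous and heterozygous muscle at 7 dpi, Ndufb5 was the only member called of 45. This count is near the background, as 2.54% of all genes tested were called lower. Ndufb5 (chr3:32736990-32751566, + strand), an accessory subunit of the distal membrane arm, was at 250.7, 206.2, 244.9 and 220.9 in saline and 139.5, 150.4, 151.2, 140.0 and 152.5 in AAV homozygous libraries. Heterozygous muscle had 210.7, 272.7, 214.4 and 215.1 against 226.4, 201.0, 229.4 and 210.9.
The homozygous groups did not overlap and the heterozygous ones did. The log2 change was -0.65 ± 0.10 (limma adjusted p = 2.15e-06) in homozygous and -0.07 ± 0.11 (adjusted p = 0.661) in heterozygous muscle, a difference of -0.58 ± 0.15 (adjusted p = 0.0154). The call was lost without homozygous saline replicate 1 (-0.54) and with the fibre marker scaling (-0.40). For mitochondrial members 0 were called by limma, edgeR and DESeq2, and 0 had an unadjusted p under 0.05.

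From 7 to 21 dpi the homozygous response deepened for 23 nuclear members and for mt-Nd3 and mt-Nd6, where 6.27% of all genes tested were called lower. The difference for mt-Nd3 was -0.85 ± 0.29 (limma adjusted p = 0.0455) and for mt-Nd6 -0.59 ± 0.20 (adjusted p = 0.0397). With the replicate number as a block mt-Nd3 was no longer called (adjusted p = 0.0506) and mt-Nd6 was (adjusted p = 0.0484); edgeR likewise called mt-Nd6 and not mt-Nd3, and DESeq2 called both. These counts rested on single libraries. Without AAV replicate 4 at 21 dpi, the library with the higher values above, 35 nuclear and 7 mitochondrial members were lower. Without AAV replicate 1 at 21 dpi the counts were 15 and 0. The mitochondrial count also fell to 0 or 1 without any other single library of these groups, except AAV replicate 4 at 7 dpi. It was 0 with quantile normalization, with reads per-million and with the total without mitochondrial genes. The fibre marker scaling left 1 nuclear and 0 mitochondrial members, and a fit of only the groups compared left 11 and 1.

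Saline muscle gives the background of the allele itself. Its nuclear sum was lower in homozygous than in wild-type muscle by a mean change of -7.49%, -16.1% and -8.78% at 3, 7 and 21 dpi, with no overlap on any day. The mean change of the mt-Nd sum was -18.9%, -17.3% and -12.2%, with no overlap at 3 dpi and with overlap at 7 and 21 dpi. At 3 and 7 dpi no single member was called by limma; at 7 dpi 23 nuclear members had an unadjusted p under 0.05, edgeR called 0 and DESeq2 1. At 3 dpi 3 nuclear members and 1 mitochondrial member had such a p, and edgeR and DESeq2 called 0. Of all genes tested, 0.576% were called lower at 3 dpi and 0.453% at 7 dpi. With reads per-million 5 nuclear members were lower at 7 dpi. At 21 dpi 1 nuclear member was called lower, where 0.722% of all genes tested were, and the count was 0 without wild-type saline replicate 2 or without homozygous saline replicate 1 or 2. It was 9 with the fibre marker scaling, 8 when only the groups compared were fitted, 5 with the total without mitochondrial genes and 3 with reads per-million. Heterozygous and wild-type saline muscle overlapped in both sums, with 0 members called by limma, edgeR or DESeq2 and 0 at an unadjusted p under 0.05, where 0.0691% of all genes tested were called lower.

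The assembly factors, which build the complex and do not stay in it, were called in both directions. Of 17 measured, 4 were lower and 1 higher in wild-type muscle at 21 dpi; in homozygous muscle 7, 10 and 12 were lower at 3, 7 and 21 dpi and 0, 1 and 1 higher; in heterozygous muscle 11 were lower and 1 higher. The 4 of 17 in wild-type muscle stood near the 21.3% of all genes called lower there, and the shares of all genes in the other comparisons were 17.2%, 22.5%, 29.6% and 20.8%. Ndufaf6 changed by -0.59 and -1.10 in homozygous muscle at 7 and 21 dpi, and Ecsit by -0.67 and -0.84, all called. Acad9, an assembly factor that also belongs to the acyl-CoA dehydrogenases, changed by -0.34 at 3 dpi and by 0.71 at 21 dpi in homozygous muscle, both called.

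A list of 13 measured genes of mitochondrial transcription and RNA stability also held 4 genes of mitochondrial DNA replication, Polg, Polg2, Twnk and Ssbp1. Of the 13, 3, 6 and 9 were lower in homozygous muscle at 3, 7 and 21 dpi and 0, 2 and 0 higher. Wild-type muscle at 21 dpi had 3 lower and heterozygous muscle 5, with 0 higher by limma in either. The shares of all genes called lower were 17.2%, 22.5%, 29.6%, 21.3% and 20.8% in that order, so the counts at 3 dpi and in wild-type muscle were near the background. Of the replication genes Polg2 was lower at 3 dpi in homozygous muscle, Polg and Twnk at 7 and 21 dpi, and Ssbp1 was higher at 7 dpi. Tfam, which packages mitochondrial DNA and starts its transcription, changed by -0.36, -0.54 and -0.67, and Lrpprc, which stabilises mitochondrial messenger RNA, by -0.47, -0.57 and -0.83, all called. Slirp, the binding partner of Lrpprc, was higher at 7 dpi (0.44). Polrmt, the mitochondrial RNA polymerase, was not called in homozygous muscle and was lower in heterozygous muscle (-0.47 ± 0.12; limma adjusted p = 0.00165).

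Of 11 regulators of mitochondrial gene expression, 7, 7 and 9 were lower in homozygous muscle at 3, 7 and 21 dpi, 7 in wild-type muscle at 21 dpi and 6 in heterozygous muscle, against the same shares of all genes. Ppargc1a, which encodes PGC-1alpha, changed by -0.87, -0.85 and -1.19 in homozygous muscle and by -0.84 ± 0.18 in heterozygous muscle, all called by limma. Perm1, a muscle regulator that acts with PGC-1alpha, changed by -1.32, -1.40 and -2.03, and Esrra, an estrogen-related receptor, by -0.49, -0.52 and -0.72. Nrf1 was called in none of the 5 comparisons, and Gabpb1 was higher in homozygous muscle at 21 dpi (0.36). Counts for these lists of assembly factors, transcription genes and regulators were made on the deposited scale only.

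Markers of other cell types moved with these changes, and their part was not tested. Of all genes tested 21.3%, 17.2%, 22.5%, 29.6% and 20.8% were called lower, in the order in which the 5 comparisons are given below. The shares called higher were 19.7%, 17.4%, 20.6%, 29.7% and 19.6%. Of 16 muscle fibre markers 9 were lower in wild-type muscle at 21 dpi, 14, 11 and 13 in homozygous muscle and 6 in heterozygous muscle, with 1, 1, 1, 1 and 2 higher. Their summed value changed by -28.7%, -26.2%, -33.8%, -46.0% and -22.3%, with no overlap. The summed macrophage markers went from a mean of 83.9 to 799.7 in wild-type muscle at 21 dpi, from 142 to 857, 109 to 498 and 83.0 to 1355 in homozygous muscle, and from 103 to 391 in heterozygous muscle. In wild-type muscle at 3 dpi they went from 103 to 222 without overlap, although no member or marker gene was called. The 6 endothelial markers were lower in 6, 4, 6, 6 and 6 cases over the 5 comparisons. Of 6 fibroblast markers 5, 2, 4, 5 and 5 were higher, and of 8 tested T and natural killer cell markers 8, 0, 6, 8 and 0. The only B and plasma cell marker tested was higher in wild-type and homozygous muscle at 21 dpi, and the only neutrophil marker tested in all but heterozygous muscle. Of 7 slow fibre markers 2, 0, 0, 3 and 2 were higher and 0, 2, 2, 1 and 0 lower. The slow fibre counts are too small to set apart from the shares of all genes. The only adipocyte marker tested was lower in all but homozygous muscle at 3 dpi, and 0 of 5 erythrocyte markers were called by limma.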

How the data were processed

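The table that the authors deposited holds a signal of normalised read counts for 14871 genes in 56 samples, and 0 columns were left without a sample. Every deposited value is the read number, with 0.5 added, over a per-library effective size and on a per-million scale; whole reads could thus be recovered for 100.0% of the values (tolerance 0.02 reads). They totalled 6.9 M to 27.18 M per library (median 21.69 M; the second lowest library held 14.98 M), which limits the precision for low genes such as Ndufa4l2. RNA was taken by bead lysis and TRI reagent and sequenced from strand-keeping (directional) libraries, per the labels' protocols. Per the submitters' processing notes FastQC, Bowtie, RSEM, limma and GRCm38/mm10 were used; their versions and settings (annotation, filter, strand) are not given in the sources used here. Reads shared between genes are assigned by estimation in RSEM, so Ndufb4 and Ndufb4c are uncertain.

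The test was limma 3.58.1 (R 4.3.3), fitted to log2(value + 1) of the 13017 genes whose mean reached 1 per-million, with trend, a mean for each group, 1 spread estimate per gene over all 56 samples, and Benjamini-Hochberg adjustment over all genes tested; an adjusted p under 0.05 is a call. The fold change on this scale understates changes of low genes. Errors of log2 changes are standard errors. In all 18 comparisons were fitted: 7 of AAV with saline, 5 response differences between genotypes, 2 between days and 4 between saline groups. The design allowed for either normalised values or counts; as the values are normalised, the log-scale test was kept, and edgeR 4.0.16 and DESeq2 1.42.0 were run on the recovered reads as alternatives. The fit was tested on simulated data for homozygous AAV against saline at 7 dpi (13017 genes). It recovered 50 of 100 genes changed by 0.5 and 78 of 100 changed by 1 on the log2 scale. Of its 136 calls 8 were false. The simulation changed only these genes, up and down alike, with the spread of the saline libraries. In the real comparison 2929 genes were called lower and 2687 higher, so its rates may differ from the simulated ones. Sums and ratios were computed with Python 3.11.15, pandas 2.3.3 and numpy 2.4.6.

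Replicate numbers were checked for pairing: over 26 AAV and saline pairs with the same number, the correlation of deviations from the group means ran from -0.24 to 0.31 (median 0.07) and was over 0.1 in 12. Over 85 pairs with other numbers the median was -0.05, and 13 were over 0.1. In homozygous muscle at 21 dpi (0.16 to 0.23) and heterozygous muscle (0.13 to 0.18) the correlation was over 0.1 in every same-numbered pair. Pairs with other numbers reached at most 0.08 and 0.07 there. In the other 5 comparisons not every same-numbered pair was over 0.1. The main fit treated samples as independent, so any such pairing was allowed for only in the fit with a replicate block. No 2 columns were identical.

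Members and gene lists were chosen with earlier results of these data known. Always named were the mt-Nd genes, Ndufs1, Ndufv1, Ndufb8, Ndufa4 and Ndufa4l2; also the 3 nuclear members with the largest called fall in each comparison of AAV with saline, the members called against most others, and those called or not called where these were 5 or fewer. The values of 1 member are not reported here; it stays in the fit, the sums and the counts over nuclear members. Positions come from GENCODE M21 (GRCm38), which holds 14854 of the 14871 gene identifiers, mitochondrial sequences from its transcripts, and promoter windows from RefSeq. Other scalings were median-of-ratios, quantile, the total without mitochondrial genes, the muscle fibre markers and, chosen after seeing the data, reads per-million.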

Additional observations from a re-analysis of the deposited data

Results flagged for a closer look

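In groups of 4 or 5 samples the highest or lowest library was set against the gap and range of its group, in 288 such checks over the sums, the ratio and the named members. Of these, 18 stood apart, many of them in 1 library. Chance gives 5% or so of groups, but the checks are not independent. Their total therefore cannot show whether the flags go beyond chance. In homozygous AAV muscle at 21 dpi replicate 4 was high in the mt-Nd sum (40531, the others 23147 to 24905) and in 8 members: Ndufa8 (94.2, the others 55.8 to 60.0), Ndufs1 (284, the others 167 to 179), Ndufv1 (212, the others 121 to 128), Ndufv2 (188, the others 136 to 142), mt-Nd1 (9156, the others 5855 to 6066), mt-Nd4 (12823, the others 7053 to 7784), mt-Nd4l (1174, the others 543 to 566) and mt-Nd5 (7270, the others 3949 to 4170). The values of 1 library are not independent of each other.

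In homozygous saline muscle at 7 dpi replicate 1 had the highest nuclear sum (6194, the others 5691 to 5721.5) and the highest Ndufb8 (248, the others 226 to 229), and replicate 2 the highest log2 ratio of mt-Nd to nuclear reads (3.77, the others 3.56 to 3.59). Replicate 4 of the homozygous AAV group at 7 dpi was lowest in Ndufs1 (232). Ndufb5 was high in homozygous saline replicate 3 at 3 dpi (258) and in heterozygous saline replicate 2 (273). Ndufb7 was high in heterozygous AAV replicate 3 (96.9) and low in wild-type saline replicate 4 at 21 dpi (69.1). In heterozygous saline muscle mt-Nd2 was high in replicate 4 (19698).

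Responses that differed in the limma test of the difference itself, in log2 units, were as follows. Homozygous less wild-type, Ndufs1 differed by -0.67 at 3 dpi (adjusted p = 0.0029) and -0.78 at 7 dpi, mt-Nd5 by -1.15 at 7 dpi, and Ndufv2 by -0.80 and mt-Nd3 by -1.12 at 21 dpi. Heterozygous less wild-type, Ndufs1 differed by -0.82 and mt-Nd5 by -1.05. Ndufb5 differed by -0.58 between homozygous and heterozygous muscle. Between days in homozygous muscle Ndufb3 differed by 0.50 (7 less 3 dpi), and Ndufb4c by -0.81 (adjusted p = 0.000577) and mt-Nd3 by -0.85 (21 less 7 dpi). Ndufb4c and Ndufb4 share sequence, so the value of Ndufb4c is uncertain.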

How the results depend on the processing

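Of 144 calls of named members, 144 and 143 held at pseudocounts of 0.25 and 4, 142 without a filter, 144 with a filter of 5 per-million, and 141 each with median-of-ratios scaling, edgeR, DESeq2 and a replicate block. Reads per-million kept 96, the total without mitochondrial genes 111, quantile normalization 104, the fibre marker scaling 58, and a fit of only the groups compared 120; the cause of these losses was not tested. Leaving out each library in turn kept 1473 of 1590.

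Counts of lower members (nuclear; mitochondrial) that moved over 1.5 times are given by setting. Quantile normalization gave 4; 3 in wild-type AAV against saline at 21 dpi and 1 mitochondrial member in homozygous muscle at 3 dpi. For homozygous less wild-type responses it gave 13 nuclear at 3 dpi, 6; 2 at 7 dpi and 1 mitochondrial at 21 dpi, for heterozygous less wild-type 2 mitochondrial, and for 21 less 7 dpi 0 mitochondrial. Fibre marker scaling gave 0; 3 in wild-type muscle at 21 dpi, 0; 0, 5 and 14 nuclear in homozygous muscle at 3, 7 and 21 dpi, and 12 nuclear in heterozygous muscle. It gave 0 nuclear, 3; 3 and 2; 0 for homozygous less wild-type responses at 3, 7 and 21 dpi, 6 nuclear for heterozygous less wild-type, 0 for homozygous less heterozygous, 1; 0 for 21 less 7 dpi, and 6 and 9 nuclear between saline groups at 7 and 21 dpi.

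Reads per-million gave 0 nuclear in wild-type muscle at 21 dpi, 12; 1 and 6 nuclear in homozygous muscle at 3 and 7 dpi, 12 nuclear in heterozygous muscle, 8 and 3 nuclear for homozygous less wild-type at 3 and 7 dpi, 5 for heterozygous less wild-type, 0 mitochondrial for 21 less 7 dpi, and 5 and 3 nuclear between saline groups at 7 and 21 dpi. The total without mitochondrial genes gave 1 nuclear in wild-type muscle at 21 dpi, 17; 2 and 12 nuclear in homozygous muscle at 3 and 7 dpi, 10 and 5 nuclear for homozygous less wild-type, 0 mitochondrial for 21 less 7 dpi, and 11 and 5 nuclear between saline groups. A fit of only the groups compared gave 3 mitochondrial in wild-type muscle at 21 dpi, 4 in homozygous muscle at 3 dpi, 7; 0 for homozygous less wild-type at 21 dpi, 21 nuclear for heterozygous less wild-type, 11; 1 for 21 less 7 dpi, and 8 and 8 nuclear between saline groups at 7 and 21 dpi. edgeR gave 1 mitochondrial member for 21 less 7 dpi, and DESeq2 gave 1 nuclear member between saline groups at 7 dpi. With the replicate number as a block, 1 mitochondrial member was called for 21 less 7 dpi; no other count moved by over 1.5 times.

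Directions turned for single members, and they were followed only for the named ones. With fibre marker scaling Ndufa4 was at 0.10 in wild-type muscle at 21 dpi and 0.072 and 0.022 in homozygous muscle at 3 and 7 dpi; Ndufa8 was at 0.068 and Ndufb4 at 0.051 at 7 dpi, Ndufb2 at 0.021 at 3 dpi, Ndufb3 at 0.058 at 21 dpi, and in wild-type muscle Ndufs8 was at 0.0021, Ndufv1 at 0.040 and Ndufv2 at 0.079. With reads per-million Ndufa4 was at 0.082, Ndufv1 at 0.021 and Ndufv2 at 0.060 in wild-type muscle at 21 dpi, and Ndufa4 at 0.010, Ndufa8 at 0.056 and Ndufb4 at 0.039 in homozygous muscle at 7 dpi. Ndufa4 was at 0.014 in wild-type muscle with the total without mitochondrial genes, and mt-Nd1 at 0.045 in homozygous muscle at 3 dpi with quantile normalization.

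When each library was left out in turn, lower counts ranged from 8 to 19 nuclear and 6 to 7 mitochondrial in wild-type muscle at 21 dpi, 25 to 36 and 4 to 7, 21 to 27, and 34 to 38 nuclear in homozygous muscle at 3, 7 and 21 dpi, and 24 to 30 and 6 to 7 in heterozygous muscle. For homozygous less wild-type they ranged from 9 to 24 and 0 to 1 at 3 dpi, 9 to 14 and 6 to 7 at 7 dpi, and 22 to 36 and 0 to 7 at 21 dpi. They ranged from 11 to 17 and 4 to 6 for heterozygous less wild-type, 0 to 1 nuclear for homozygous less heterozygous and for saline groups at 21 dpi, and 15 to 35 and 0 to 7 for 21 less 7 dpi. The difference in log2 ratio ranged from -0.26 to -0.09, 0.0082 to 0.20 and -0.61 to -0.30 in wild-type muscle at 3, 7 and 21 dpi, -0.16 to -0.02, -0.60 to -0.49 and -0.71 to -0.61 in homozygous muscle, and -0.48 to -0.36 in heterozygous muscle. As a difference of mean log2 levels it was -0.18, 0.06, -0.54, -0.18, -0.61, -0.77 and -0.42 in the same order.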
